A study of Mus musculus with 16 samples.

Results

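The comparison set the 2 H3K4me2 libraries of mTEC-II against the 2 of mTEC-I, which are 4 of the 16 samples of the series and 4 of its 8 H3K4me2 libraries. The samples were chosen by their labels. Both populations are mTEC, the medullary epithelial cells of the thymus, from C57BL/6 mice, and were sorted from enzyme-digested thymus as CD45-negative and Epcam-positive cells. The mTEC-I gate added low MHC class II and Itgb4, and the mTEC-II gate added high MHC class II. No treatment or genetic change is given for either group. The labels call each sample enriched for its population, and they do not say whether replicates are of separate mice, so the p-values reflect the spread of these libraries alone, and that spread could be technical. The other H3K4me2 libraries, of mTEC-III (Ly6D-positive) and mTEC-IV (low MHC class II, Itgb4-negative, L1cam-positive), entered the fit to share its estimate of the spread. They also counted in the filter on low values, which was taken over all 8 H3K4me2 libraries. Of the 8 whole-cell extracts, none was used here.

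Dimethylation of histone H3 at lysine 4 (H3K4me2) marks both promoters and enhancers, including ones that are poised and not yet in use, so it is a map of regulatory regions and not a measure of transcription. Medullary thymic epithelial cells display proteins of many tissues to developing T cells, which removes T cells that react to self. Cells with high MHC class II include those that express Aire, the regulator of many of these tissue genes, while Itgb4-positive cells with low MHC class II share integrins and keratins with the basal layer of stratified epithelia.

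The signal of a peak is given as tags per 10000000 tags of its library, called units below. The mTEC-I libraries held 6461587 and 1702103.5 tags and the mTEC-II libraries 15412132.5 and 13504742.5. One tag was therefore worth 5.88 units in mTEC-I replicate 2, where 1474 peaks stood at 0, against 5 and 8 peaks at 0 in the mTEC-II libraries. A count of 0 allows up to 4.64 and 17.6 units in the mTEC-I libraries and up to 1.95 and 2.22 in the mTEC-II libraries. These limits cover counting error only. Over all peaks the log2 difference between the replicates had an SD of 0.45 in mTEC-I and 0.18 in mTEC-II. The share of tags inside peaks was alike, at 33.4% and 33.3% for the mTEC-I libraries, against 31.9% and 32.2% in mTEC-II. Below, the 4 values of a peak or gene are given as mTEC-I replicates 1 and 2, then mTEC-II replicates 1 and 2. A gene's value is the sum over the peaks for which its start site is the nearest one, which does not show that a peak acts on that gene. Differences are mTEC-II minus mTEC-I on the log2(value + 10) scale, with SE, and the adjusted p-values are from limma over all peaks or all genes tested, with 0.05 as the threshold.

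The map of regulatory regions differed widely between the populations. Of 29469 peaks tested, 6960 (23.6%) passed: 4643 (15.8%) were higher in mTEC-II and 2317 (7.86%) were lower. The higher peaks had a median log2 difference of 1.08 and the lower peaks one of -0.60. The peaks tested are the authors' lists of the populations, merged, so a peak could enter through the population where it was strong. Peaks from the mTEC-II list and not the mTEC-I list (16766) had 3559 higher and 641 lower. The reverse group (38) had 0 and 27, peaks in both lists (6857) had 85 and 1338, and peaks in neither (5808) had 999 and 311. The balance of the calls thus differed by source list. Summed by gene, 3571 of 15738 genes (22.7%) passed: 1833 (11.6%) were higher in mTEC-II and 1738 (11.0%) were lower. The even split of genes depended on the scaling and the test. Higher genes made up 51.3% of the calls as deposited, but 63.5% with library totals set to the tags in peaks, 64.1% with cyclic loess and 61.9% with edgeR on the recovered tags. Fewer were called when either mTEC-I library was left out. Without mTEC-I replicate 2, 2389 peaks were higher and 586 lower, and without mTEC-I replicate 1, 3611 and 1360. For genes, the counts were 1034 (6.57%) and 479 (3.04%) without replicate 2 and 1515 and 1072 without replicate 1.

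Peaks far from a start site were called higher more often than peaks at start sites. Of 11330 peaks within 1 kb of a start site, 626 (5.53%) were higher in mTEC-II and 1171 (10.3%) were lower. Of 8817 peaks at 1 to 20 kb, 1909 (21.7%) were higher and 684 (7.76%) lower. Of 9322 peaks beyond 20 kb, 2108 (22.6%) were higher and 462 (4.96%) lower. The tags moved the same way in both replicates. Peaks within 1 kb held 57.4% and 57.5% of the tags in peaks in mTEC-I against 53.8% and 53.9% in mTEC-II, while peaks beyond 20 kb held 13.7% and 13.8% against 16.12% and 16.04%. The level of a peak moved with its distance: with peaks split by level into 4 classes of equal size, 30.2% of the lowest class were higher and 1.97% lower, against 4.29% and 16.3% of the highest class. Within that highest class 1.78% of peaks up to 1 kb, 8.77% at 1 to 20 kb and 13.8% beyond 20 kb were higher. There 14.6%, 19.98% and 19.4% were lower, so that lower calls outnumbered higher ones at each distance. In the class below the highest, 3.504%, 17.38% and 14.05% were higher at these distances. In the class above the lowest the higher shares were 18.15%, 22.16% and 20.06%, and in the lowest 33.98%, 32.49% and 28.22%. The share of higher calls thus rose steadily with distance in the highest class only, and it fell with distance in the lowest. With cyclic loess, which removes differences that follow the level, peaks up to 1 kb no longer had an excess of lower calls (701 higher, 589 lower), and peaks beyond 20 kb had more higher calls than lower ones (1382 and 644), with a median of 0.014 against 0.05 at 1 to 20 kb. In the values as deposited without mTEC-I replicate 2, 326 peaks up to 1 kb were higher and 262 lower, and without mTEC-I replicate 1, 566 and 693. The part of the level in the distance pattern was not tested.

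**Figure D1:**
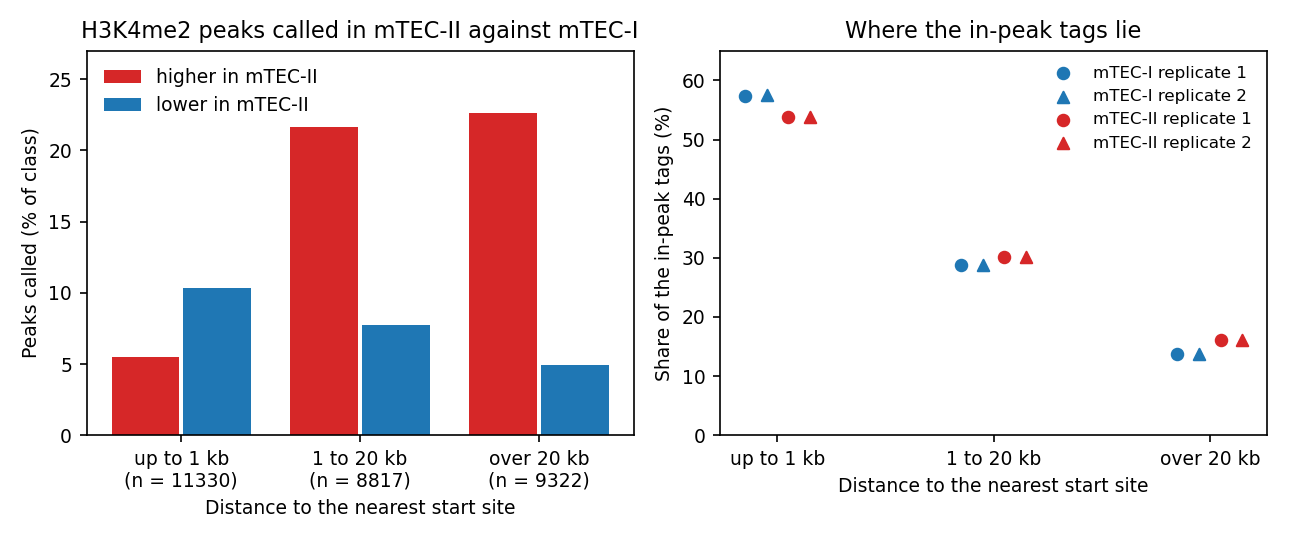
H3K4me2 peaks by distance to the nearest start site. The bars show the percentage of each class called higher (red) and lower (blue) in mTEC-II, and the points the percentage of each library's in-peak tags that lie in the class. In mTEC-II 5.53% of peaks up to 1 kb and 22.6% of peaks beyond 20 kb were higher.

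The MHC class II gates were set on surface protein, and the genes of that protein did not pass in the limma fit. None of the 8 genes used in the sorts of the series (Epcam, Ptprc, Itgb4, H2-Aa, H2-Ab1, H2-Eb1, Ly6d, L1cam) passed in the limma fit. H2-Aa, the class II alpha chain, stood at 457 and 432 units in mTEC-I against 406 and 398 in mTEC-II (log2 difference -0.14 ± 0.12, adjusted p = 0.412). H2-Ab1, its beta chain, stood at 586 and 543 against 607 and 649 (0.15 ± 0.10, adjusted p = 0.295), and H2-Eb1 at 961 and 931 against 989 and 1023. The counts-based test of edgeR called H2-Ab1 (0.21, adjusted p = 0.0248) and H2-Eb1 (0.17, adjusted p = 0.0233) higher. Itgb4, the integrin subunit in the mTEC-I gate, had 330 and 285 units in mTEC-I against 242 and 239.9 in mTEC-II. Its groups did not overlap, which also held, called or not, for 6384 genes on the lower side and 3626 on the higher side of 15738 tested. The difference of Itgb4 missed the threshold in limma (-0.34 ± 0.14, adjusted p = 0.0581), while it was lower in edgeR (adjusted p = 0.0193). Epcam, the surface protein that marks epithelium, had similar values in the 4 libraries (826, 846, 846 and 863), and Ptprc, which encodes CD45, was low in all of them (34.1, 35.3, 38.9 and 48.9).

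In the class II region H2-Eb2, a gene next to H2-Eb1 whose protein is a less used class II beta chain, had the largest difference of the list. Its peak in intron 1 (mm9, chr17:34461773-34468043) stood at 51.1 and 41.1 units in mTEC-I against 315 and 349 in mTEC-II, a difference of 2.61 ± 0.19 (adjusted p = 3.4e-20). Both mTEC-II libraries lay far above both mTEC-I libraries. Ciita, the coactivator that switches class II genes on, was also higher, at 354 and 329 against 527 and 519 (0.60 ± 0.13, adjusted p = 6.7e-05). Of its 2 peaks, the one in intron 1 (chr16:10487769-10498911) was higher (0.59 ± 0.14, adjusted p = 0.00056), and the one 13.1 kb upstream had a similar difference that did not pass (0.60 ± 0.29, adjusted p = 0.124). Over all genes tested 11.6% were higher and 11.0% lower, and the class II and class I counts below were near those shares. Of the 17 tested genes of class II presentation 3 were higher and 1 was lower, with a median of 0.11 against -0.09 over all genes. The other higher gene was H2-Ob, a subunit of a protein that restrains peptide loading (0.74, adjusted p = 0.012), and its call ended without mTEC-I replicate 1 (adjusted p = 0.181), replicate 2 (adjusted p = 0.0565) or mTEC-II replicate 2 (adjusted p = 0.0658). The lower gene was March8, a ubiquitin ligase (-0.50), which lost its call without mTEC-I replicate 2 (adjusted p = 0.581), without mTEC-II replicate 2 (adjusted p = 0.0532) and under edgeR (adjusted p = 0.102). None of the 13 tested class I presentation genes was higher in limma or edgeR. The 2 lower ones were H2-K1, a class I heavy chain (-0.41), and Tap1, a peptide transporter (-0.40), and without mTEC-I replicate 1 neither passed (adjusted p = 0.0515 and 0.301).

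The promoter of H2-Eb2 is shown because it carries a Y box, one of the short elements of class II promoters. The 250 bases before the RefSeq start site (GRCm38.p6, plus strand, chr17:34325425-34325674) read as follows, with the Y box (CTGATTGG, searched on both strands) in capitals.
H2-Eb2: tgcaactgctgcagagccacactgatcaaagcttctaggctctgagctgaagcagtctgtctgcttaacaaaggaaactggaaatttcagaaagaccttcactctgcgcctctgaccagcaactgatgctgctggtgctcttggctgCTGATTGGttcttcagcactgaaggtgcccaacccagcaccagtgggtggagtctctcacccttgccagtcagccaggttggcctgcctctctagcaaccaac
Searched over the whole promoter windows of the table (300 bases, of which 50 follow the start site), these letters occurred in 4.10% of all RefSeq promoters, in 5.10% of promoters whose start-site peak was higher, in 4.99% of those lower and in 6.49% of those with neither call.

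**Figure D2:**
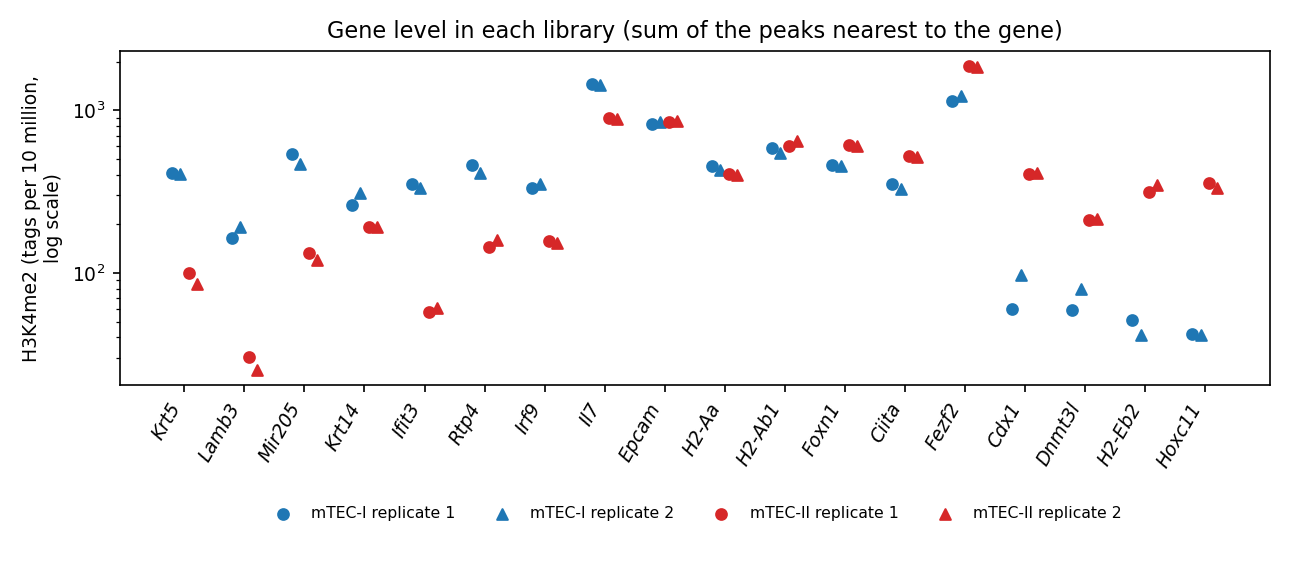
H3K4me2 signal of named genes in each library of mTEC-I and mTEC-II, in tags per 10000000 on a log axis, with 1 point per library (circles replicate 1, triangles replicate 2; blue mTEC-I, red mTEC-II). H2-Eb2 and Cdx1 lie well above the mTEC-I libraries in both mTEC-II libraries, and Krt5, Ifit3 and Mir205 well below.

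Genes of the Aire stage, costimulation and the receptors that drive it were more often higher than lower. Over all genes tested 11.6% were higher and 11.0% lower. Of the 20 tested in this list 9 were higher and 1 lower, with a median of 0.26. Without mTEC-I replicate 1 or replicate 2, 5 were higher. Neither Aire nor Cd86 has a peak assigned to it. A peak inside the Aire locus was given by the table to its neighbour Dnmt3l, a cofactor of DNA methylation. The peak (chr10:77503091-77507627) is annotated to exon 3 of a transcript in the Aire gene body, and its centre lies 0.3 kb from the Dnmt3l start site. It stood at 58.8 and 79.3 units in mTEC-I against 212 and 215 in mTEC-II (1.51 ± 0.19, adjusted p = 9.3e-10). Traf1, an adaptor of TNF receptor signalling, had 326 and 209 against 475 and 534 (0.92 ± 0.12, adjusted p = 1.3e-10). Cd80, a costimulatory ligand, had 371 and 391 against 485 and 489 (0.35 ± 0.11, adjusted p = 0.0088), and its call ended without mTEC-I replicate 1 (adjusted p = 0.13) or replicate 2 (adjusted p = 0.0808). Cd40, the receptor for a T cell ligand, stood at 231 and 244 against 290.4 and 299.5 (0.30 ± 0.15, adjusted p = 0.139), and passed with edgeR (0.42, adjusted p = 0.00181).

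Fezf2, a transcription factor that controls other tissue genes in mTEC, rose from 1148 and 1219 units to 1878 and 1847 (0.65 ± 0.07, adjusted p = 2.1e-14). The rise lay in distal peaks. The start-site peak (chr14:13170448-13183655) did not pass, at 759, 719.7, 726 and 715 (-0.04 ± 0.09, adjusted p = 0.812). The peak 34.9 kb upstream (chr14:13206500-13220069), in an intron of the next gene, had 182 and 259 units in mTEC-I against 708 and 663 in mTEC-II (1.62 ± 0.12, adjusted p = 6.6e-19), so that in mTEC-II it was about as strong as the start-site peak. A peak 60.5 kb upstream was higher too (1.09 ± 0.16, adjusted p = 1e-07). With only the peaks within 20 kb counted, the gene's difference was -0.04. Tnfrsf11a, the RANK receptor, had at its start site 452 and 517 against 482 and 508 units (0.03 ± 0.11, adjusted p = 0.866). Its peak 32.3 kb upstream, in an intron of another gene, was low in mTEC-I (7.74 and 11.8) and higher in mTEC-II (42.5 and 62.2, a difference of 1.65 ± 0.30, adjusted p = 1.1e-05). The peaks of these 2 genes were looked at one by one after their values were seen.

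**Figure D3:**
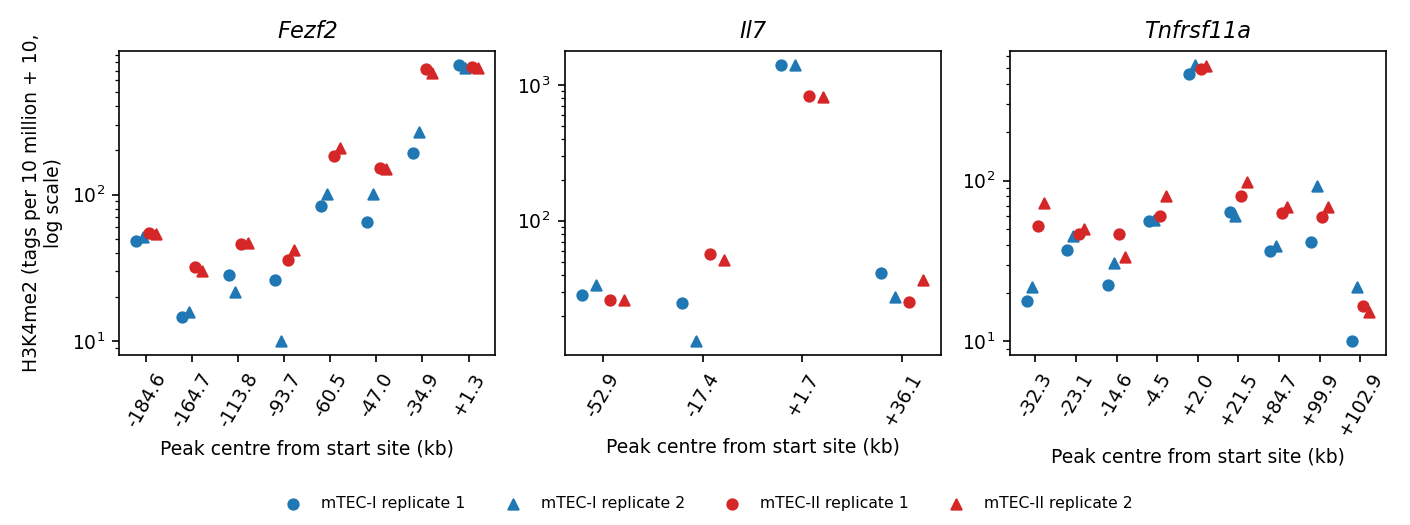
Peaks of Fezf2, Il7 and Tnfrsf11a by the distance of their centre from the start site in kb (peaks in order, not to scale), with the H3K4me2 signal of each library as tags per 10000000 + 10 on a log axis. The start-site peak of Fezf2 lies between 715 and 759 in the 4 libraries, and the peak 34.9 kb upstream is higher in both mTEC-II libraries.

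The NF-kappaB and TNF receptor pathway went both ways: of 30 genes tested 10 were higher and 6 lower, with a median of -0.01, and without either mTEC-I replicate 4 were higher and 3 lower. For all genes tested the shares were 11.6% higher and 11.0% lower. Ikbkb, a kinase that activates the canonical branch, was higher at 309 and 249.7 against 436 and 424 (0.61 ± 0.12, adjusted p = 1.3e-05). Tnfaip3, the enzyme A20 that ends the signal, was lower at 763 and 825 against 519.7 and 549 (-0.56 ± 0.09, adjusted p = 3.6e-07). Nfkbiz, a nuclear IkappaB protein, was lower as well (-0.38 ± 0.09, adjusted p = 0.00031).

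Genes of basal epithelium were on the lower side in mTEC-II. Among all genes tested 11.0% were lower and 11.6% higher. Of the 25 basal genes tested, 12 were lower and none was higher in limma, with a median of -0.27. With edgeR 12 were lower and 1 higher. Without mTEC-I replicate 1 the count was 4, and without replicate 2 it was 6. Krt5, a basal keratin, stood at 413 and 408 units in mTEC-I against 99.9 and 85.5 in mTEC-II (-2.04 ± 0.19, adjusted p = 1.3e-19). Both of its peaks were lower, one in intron 4 (chr15:101538697-101542997, -1.98 ± 0.24) and one 1.0 kb upstream (-1.85 ± 0.26). Lamb3, a laminin chain of the basement membrane, fell from 164 and 191 to 30.5 and 25.2 (-2.31 ± 0.28, adjusted p = 9.9e-13). Ly6a, the surface protein Sca-1, fell from 258 and 170.4 to 47.7 and 58.5 (-1.81 ± 0.24, adjusted p = 8.1e-11). In each of these genes the populations were far apart. Krt14, the usual partner of Krt5, had a smaller difference, at 262 and 308 against 192 and 191 (-0.54 ± 0.18, adjusted p = 0.0165), and its call ended without mTEC-I replicate 1 (adjusted p = 0.0538), without replicate 2 (adjusted p = 0.349), with cyclic loess (adjusted p = 0.0962) and with DESeq2 (adjusted p = 0.138).

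Mir205, the gene of a microRNA of basal epithelia, fell from 540.1 and 467 to 133 and 120.3 units (-1.91 ± 0.16, adjusted p = 7.3e-23). Its main peak covers its start site (chr1:195332315-195336973, -1.97 ± 0.17). The mature sequence, from RefSeq on GRCm38.p6, is given with its seed, bases 2 to 8, in capitals.
mmu-miR-205-5p: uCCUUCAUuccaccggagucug

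Trp63, the p63 factor that maintains basal cells and thymic epithelium, did not pass as a sum (968 and 1002 against 956 and 911, -0.08 ± 0.08, adjusted p = 0.546), and its peaks moved in opposite directions. With only the peaks within 20 kb it was lower (-0.43, adjusted p = 0.000414). The peak at the inner start site, whose transcripts encode the short form of the protein, was lower (chr16:25801693-25807967, 526 and 519.9 against 349.7 and 348, -0.57 ± 0.11, adjusted p = 6e-05). A peak in intron 1 of the long form, 49.6 kb upstream of that inner site, rose from 31.0 and 29.4 to 135 and 129 (1.82 ± 0.21, adjusted p = 4.6e-11). The peak at the start site of the long form did not pass (52.6 and 64.6 against 57.4 and 59.6, adjusted p = 0.995). Peaks of 1 gene called in both directions were uncommon: 377 of 6535 genes with at least 2 peaks (5.77%) had them, and 1790 of 5095 genes with a called peak were not called as a sum. Among the keratins 2 of 12 tested were higher and 5 lower (1 and 2 without mTEC-I replicate 1, 1 and 3 without replicate 2). Krt7, a keratin of simple epithelia, was lower at 402 and 394 against 205 and 210.3 (-0.91 ± 0.14, adjusted p = 2.7e-08), and Krt23 was higher at 20.9 and 17.6 against 79.8 and 91.8 (1.71 ± 0.19, adjusted p = 8.6e-14).

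Interferon-induced genes had the largest share of lower genes among the 25 lists. Over all genes tested 11.0% were lower and 11.6% higher. Of the 37 tested in this list, 27 were lower and 1 was higher, with a median of -0.57. Without mTEC-I replicate 1, 19 were lower, and without replicate 2, 18. Ifit3, which blocks viral RNA, stood at 353 and 335 units in mTEC-I against 57.1 and 60.7 in mTEC-II (-2.36 ± 0.22, adjusted p = 1.4e-18), from 1 peak in its intron 1 (chr19:34657099-34661281). Rtp4, a receptor transport protein induced by interferon, had 464 and 411 against 145 and 159 (-1.47 ± 0.13, adjusted p = 6.3e-20). Ifit2, of the same family as Ifit3, had 361 and 382 against 149 and 153 (-1.24 ± 0.16, adjusted p = 1.4e-11). Irf9, the DNA-binding subunit of the interferon-activated complex, fell from 333 and 353 to 157 and 153 (-1.10 ± 0.13, adjusted p = 1.3e-12). The gene called higher was Ifi27 (0.57, adjusted p = 0.0316), which lost its call without mTEC-I replicate 1 (adjusted p = 0.0823), mTEC-I replicate 2 (adjusted p = 0.317) or mTEC-II replicate 2 (adjusted p = 0.14). Outside the list, 4 of the 12 largest falls by the rule for named genes were in Ifi27l2a (-2.18 ± 0.18), Tgtp1 (-2.06 ± 0.20), Slfn8 (-1.99 ± 0.16) and Phf11d (-1.72 ± 0.21), which are also known to respond to interferon.

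The promoters of Ifit3 and Rsad2 are shown for the element through which interferon acts. Rsad2, the antiviral enzyme viperin, fell from 188 and 170.4 to 84.7 and 86.6 (-0.98 ± 0.18, adjusted p = 2.9e-06). The capitals mark a core of the interferon-stimulated response element, GAAANNGAA on either strand, in the 250 bases before the RefSeq start sites on GRCm38.p6 (Ifit3, plus strand, chr19:34583279-34583528; Rsad2, minus strand, chr12:26456453-26456702).
Ifit3: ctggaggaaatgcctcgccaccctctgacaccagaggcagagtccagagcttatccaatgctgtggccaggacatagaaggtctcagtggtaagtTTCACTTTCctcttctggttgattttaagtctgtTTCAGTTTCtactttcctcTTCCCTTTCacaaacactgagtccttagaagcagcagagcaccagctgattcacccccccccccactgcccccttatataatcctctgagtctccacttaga
Rsad2: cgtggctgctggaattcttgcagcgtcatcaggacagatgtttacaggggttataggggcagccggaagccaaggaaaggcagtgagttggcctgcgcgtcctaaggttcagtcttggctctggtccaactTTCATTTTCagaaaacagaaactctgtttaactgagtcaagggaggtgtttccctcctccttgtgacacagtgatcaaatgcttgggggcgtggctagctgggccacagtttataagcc
Ifit3 has 3 matches and Rsad2 has 1. Over the windows of 300 bases, the letters occurred in 8.56% of 32851 RefSeq promoters. Among genes with a start-site peak they occurred in 110 of 862 with a lower peak (12.8%), 42 of 431 with a higher peak (9.74%) and 555 of 7008 with neither (7.92%). Inside the interferon list they occurred in 13 of 19 lower genes with a matched promoter (68.4%) and in 4 of 7 of the others (57.1%). A match is a run of letters and not a site shown to be bound.

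**Figure D4:**
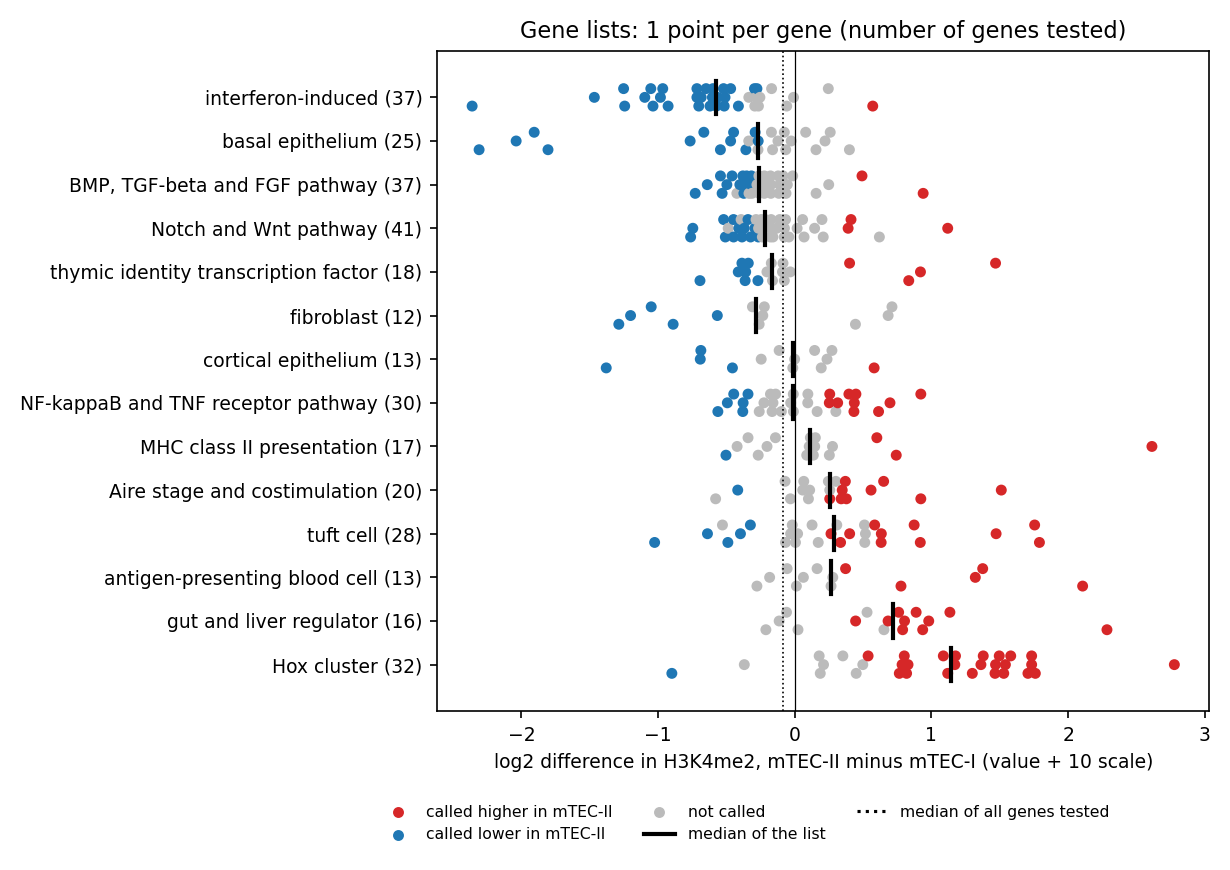
Gene lists in the comparison of mTEC-II with mTEC-I. Each point is a gene at its log2 difference (red higher, blue lower, grey not called), the black bars are the list medians and the dotted line is the median of all genes, -0.09. Hox genes have 24 of 32 higher, and interferon-induced genes 27 of 37 lower.

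Hox genes, whose clustered order sets positional identity along the body axis, gained the mark. Of 32 tested, 24 were higher and 1 was lower, with a median of 1.15; 21 were higher without mTEC-I replicate 1 and 19 without replicate 2. Among all genes tested 11.6% were higher and 11.0% lower. All 4 Hox clusters took part. By gene, 7 of 9 were higher in Hoxa, 7 of 9 in Hoxb, 6 of 7 in Hoxc and 4 of 7 in Hoxd. Hoxc had the largest rise in summed signal, from 561 and 502 to 1694 and 1579 units, with 13 of its 15 peaks higher. Hoxb rose from 374 and 382 to 906 and 883, with 10 of 14 peaks higher. Hoxd, the weakest cluster in mTEC-I, went from 264 and 235 to 425 and 394, with 3 of 7 peaks higher. The sum over Hoxa was 1643 and 1539 against 1442 and 1547, with 1 gene lower and the others higher or not called.

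Hoxc11 stood at 41.8 and 41.1 units in mTEC-I against 355 and 331 in mTEC-II (2.78 ± 0.16, adjusted p = 9.1e-39), and its larger peak lies in its only intron (chr15:102783944-102788116, 2.53 ± 0.18). Hoxc10 (1.73 ± 0.14), Hoxb7 (1.71 ± 0.19), Hoxb9 (1.58 ± 0.21) and Hoxc8 (1.54 ± 0.14) were higher by similar amounts. Hoxa3, the Hox gene needed for thymus formation, rose from a low level, 35.6 and 47.0, to 135 and 127 (1.47 ± 0.20, adjusted p = 1.4e-10). Hoxa2 was the gene that fell. It held most of the Hoxa signal in mTEC-I and went from 1093 and 969 to 514 and 583 (-0.90 ± 0.11, adjusted p = 5.8e-13). Hoxa4, whose peak is annotated inside a Hoxa3 intron, had 211 and 191 against 152 and 154 (-0.37 ± 0.15), which did not pass as a peak (adjusted p = 0.0582).

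**Figure D5:**
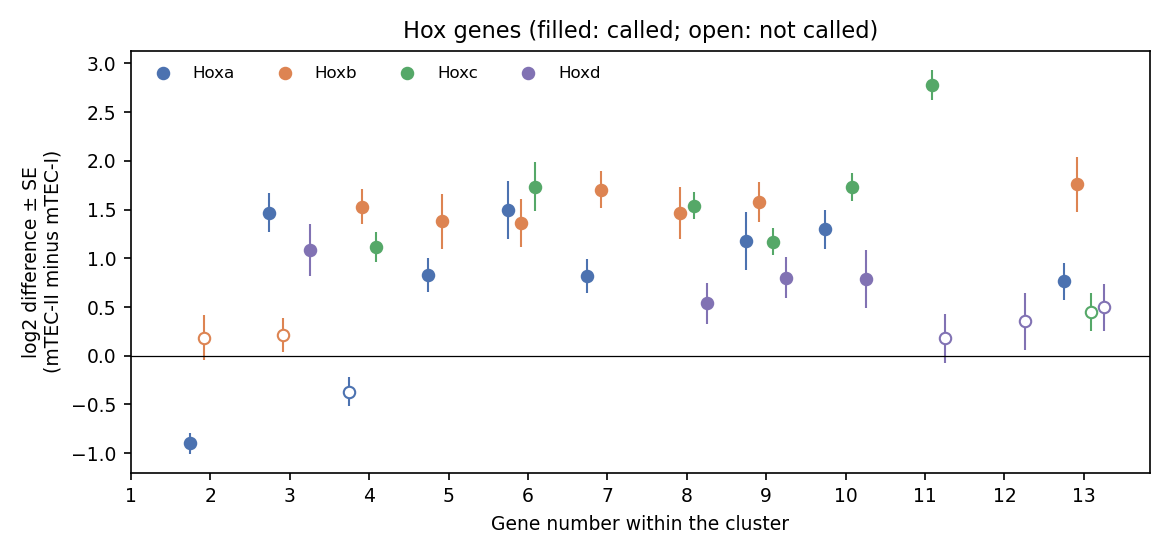
Log2 difference in H3K4me2 (mTEC-II minus mTEC-I, bars SE) of each Hox gene by its number within the cluster, with the 4 clusters in colours, filled points called and open points not called. Hoxc11 is the highest at 2.78 and Hoxa2 the lowest at -0.90.

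MicroRNA genes inside these clusters moved with them. Mir10b, in the Hoxd cluster, stood at 69.7 and 91.1 units in mTEC-I against 400.0 and 389 in mTEC-II over 4 peaks (2.17 ± 0.14, adjusted p = 1.8e-33). Mir196b, in Hoxa, went from 13.2 and 17.6 to 75.3 and 98.5 (1.93 ± 0.26, adjusted p = 4e-10). Mir196a-1, in Hoxb, was near the limit of detection in mTEC-I (6.19 and 0) and stood at 47.4 and 39.99 in mTEC-II (2.07 ± 0.31, adjusted p = 7.2e-09), and Mir196a-2, in Hoxc, at 13.9 and 11.8 against 42.5 and 47.0 (1.26 ± 0.29, adjusted p = 0.00028). These peaks lie in or beside Hox transcripts, so their signal is not separate from that of the neighbouring Hox genes. The mature sequences show that miR-196a and miR-196b share their seed, in capitals, and that miR-10b has another.
mmu-miR-10b-5p: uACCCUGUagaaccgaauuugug
mmu-miR-196a-5p: uAGGUAGUuucauguuguuggg
mmu-miR-196b-5p: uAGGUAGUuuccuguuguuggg
Of all 400 microRNA genes tested, 96 were higher and 41 lower, with a median of 0.07. Among all genes tested, 11.6% were higher and 11.0% lower.

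Regulators of gut and liver were another group with a one-sided gain. Of 16 tested, 10 were higher and none was lower in limma or without either mTEC-I replicate (9 higher without replicate 1, 8 without replicate 2), and the median was 0.72. For scale, 11.6% of all genes tested were higher and 11.0% lower. Cdx1, an intestinal homeobox factor, rose from 59.6 and 96.9 to 407 and 413 (2.28 ± 0.14, adjusted p = 9.8e-36). Cdx2, its relative, rose from 47.2 and 29.4 to 96.4 and 92.2 (1.14 ± 0.22). Foxa1, a factor that opens chromatin in endodermal organs, rose from 424 and 394 to 795 and 787 (0.94 ± 0.09, adjusted p = 1.5e-17). Gata4, a factor of gut and heart, was higher too (0.79 ± 0.13).

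Genes of tuft cells, chemosensory cells that also occur in the thymic medulla, were higher in 11 and lower in 5 of 28 tested, with a median of 0.29. The shares over all genes tested were 11.6% and 11.0%. Without mTEC-I replicate 1 the counts were 7 and 2, and without replicate 2 they were 6 and 3. With only the 4 libraries of the comparison 5 were higher, with DESeq2 6, and from peaks no farther than 1 kb from a start site 2. Gfi1b, a tuft cell transcription factor, had 30.2 and 32.3 units in mTEC-I against 110.3 and 151 in mTEC-II (1.76 ± 0.21, adjusted p = 3.5e-13). Hmx2 rose from 86.7 and 135 to 318 and 319.5 (1.47 ± 0.14, adjusted p = 4.4e-19), and Hmx3 beside it by 0.92 ± 0.12. Alox5, an enzyme of leukotriene synthesis, was lower (-1.03), but with only its peaks within 20 kb the difference was 0.14 and did not pass (adjusted p = 0.707). Of 13 neuroendocrine genes 4 were higher (2 without mTEC-I replicate 2) and 1 lower. Chga, a granule protein of endocrine cells, was at or below the limit of detection in mTEC-I (0 and 11.8) and stood at 67.8 and 73.7 in mTEC-II (2.45 ± 0.29, adjusted p = 3.7e-13). Pax6, a factor of eye, brain and islet cells, rose from 325 and 273 to 560.3 and 608 (0.95 ± 0.10, adjusted p = 8.8e-15).

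Genes that mark cortical epithelium or thymic identity changed in part. For scale, 11.6% of all genes tested were higher and 11.0% lower. Il7, the cytokine that T cell precursors need, fell from 1462 and 1425 units to 896 and 884 (-0.69 ± 0.08, adjusted p = 1.5e-12), mostly at its intron 1 peak (chr3:7603650-7618653, 1398 and 1381 against 818 and 799.7). A weak peak 17.4 kb upstream of Il7, looked at after its values were seen, moved the other way, from 14.7 and 2.94 to 47.4 and 41.5 (1.60 ± 0.30, adjusted p = 1.4e-05). Scx, a tendon and mesenchyme factor, fell from 229.8 and 253 to 73.0 and 102 (-1.38 ± 0.21), and Ctsl, the cortical protease cathepsin L, from 437 and 508 to 284 and 294 (-0.69 ± 0.12). Of 13 cortical genes 1 was higher and 4 lower, and of 18 thymic transcription factors 4 were higher and 7 lower (2 and 5 without mTEC-I replicate 1, 2 and 3 without replicate 2). Foxn1, the master factor of thymic epithelium, had 460.4 and 455 against 609 and 606 (0.40 ± 0.11, adjusted p = 0.00412), and its call ended without mTEC-I replicate 1 (adjusted p = 0.0578) or replicate 2 (adjusted p = 0.105). Sox2 was higher, at 217 and 217 against 425 and 414 (0.92 ± 0.12, adjusted p = 2.8e-11), and Isl1 lower (-0.41 ± 0.08, adjusted p = 1.2e-05). Of 15 chemokine genes 4 were higher and 3 lower (3 and 2 without mTEC-I replicate 1, 1 and 1 without replicate 2), among them Cxcl2, a neutrophil attractant (0.97 ± 0.12), and Cx3cl1 (-0.63 ± 0.15). Ccl21a and Ccl19, ligands that draw thymocytes into the medulla, have no peak assigned.

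Signalling genes that pattern epithelia were more often lower. Over all genes tested, 11.6% were higher and 11.0% lower, and the counts for cornified epithelium below were near those shares. In the Notch and Wnt pathways 13 of 41 tested were lower and 3 higher, with a median of -0.22 (without mTEC-I replicate 1, 5 and 3; without replicate 2, 8 and 0). Wnt5a, a ligand, fell from 686 and 705 to 413 and 409 (-0.75 ± 0.10, adjusted p = 9e-10), and Fzd2, a Wnt receptor, from 467 and 447 to 264 and 266 (-0.76 ± 0.14, adjusted p = 2.4e-06). Jag1, a Notch ligand, was lower by less (-0.45 ± 0.09, adjusted p = 3.9e-05). In the BMP, TGF-beta and FGF pathways 13 of 37 were lower and 2 higher, with a median of -0.26 (without mTEC-I replicate 1, 8 and 2; without replicate 2, 4 and 1). Id1, a direct BMP target, fell from 494 and 473 to 296 and 318 (-0.64 ± 0.12), the receptor Fgfr2 from 812 and 679 to 503 and 518 (-0.53 ± 0.11), and Fgf10, one of its ligands, rose from 70.4 and 52.9 to 133 and 120.3 (0.94 ± 0.20, adjusted p = 0.00011). Of 28 cell cycle genes 2 were higher and 2 lower. The higher ones were the inhibitors Cdkn2a (0.74 ± 0.11, adjusted p = 9.6e-09) and Cdkn2b (0.63 ± 0.09, adjusted p = 2.6e-09), which lie side by side. The lower ones, Ccnd1 and Aurka, lost their calls without mTEC-I replicate 2 (adjusted p = 0.195 and 0.534). Among 25 pan-epithelial genes 5 were higher and 7 lower (4 and 3 without mTEC-I replicate 2). The claudins Cldn7 (0.95 ± 0.14), Cldn3 (0.77 ± 0.15) and Cldn4 (0.63 ± 0.12) were higher, while Cldn1 (-0.57 ± 0.13) and Perp, a desmosome protein (-0.93 ± 0.10), were lower. Among 30 genes of cornified epithelium, the differentiated layer of skin, 3 were higher and 4 lower (3 and 2 without mTEC-I replicate 1), including Krtdap (-1.36 ± 0.27) and Cdsn (1.12 ± 0.24). Of 63 ribosomal protein genes 1 was higher and 10 were lower, with a median of -0.23, and without mTEC-I replicate 2 the counts were 1 and 1.

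Markers of other cells that a thymus sort could hold were read in the same way, beside 11.6% higher and 11.0% lower over all genes tested. Of 18 thymocyte markers 7 have a peak, and Cd3e, Cd3d, Cd3g, Cd4, Cd8a, Rag1, Rag2 and Lck have none. Their summed signal was 2571 and 2350 units in mTEC-I against 2720 and 2808 in mTEC-II, with 2 genes higher, Tcf7 (232 and 149.8 against 392 and 376) and Themis (1.65 ± 0.25). Of 22 markers of antigen-presenting blood cells, which carry class II themselves, 13 have a peak, while Spi1, Fcer1g, Tyrobp, Clec9a, Xcr1, Ms4a1 and Lyz2 have none. Their sum was 1315 and 1389 against 1992 and 1926, and 5 were higher, among them Pax5 (2.11 ± 0.20), Flt3 (1.38 ± 0.25) and Laptm5 (1.32 ± 0.12). Of 20 fibroblast markers 12 have a peak, and Lum, Col1a2, Col3a1 and Postn have none. Their sum was 1927 and 2124 against 1484 and 1386, and 5 were lower (3 without mTEC-I replicate 2), among them Col6a1 (-1.29 ± 0.21), Col6a2 (-1.20 ± 0.25) and Pdgfra (-0.89 ± 0.15). Of 16 endothelial markers 14 have a peak, with sums of 2165 and 2162 against 2201 and 2199, and 2 were higher and 2 lower. The higher ones were Erg (1.14 ± 0.14) and Flt1, and the lower ones Emcn and Sox18, and without mTEC-I replicate 2 the last 3 lost their calls (adjusted p = 0.521, 0.151 and 0.0805). The part of such cells in the differences between the populations was not tested. In sorted bulk samples fewer cells of a type and less of the mark per cell cannot be told apart.

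The largest gene differences, by the rule for named genes, were in genes of varied kinds. The higher ones included 1810006J02Rik (2.90 ± 0.17), Lsp1, a leukocyte actin-binding protein (10.8 and 5.88 against 119 and 122, 2.84 ± 0.26), Mep1a, a protease of kidney and gut (9.29 and 5.88 against 111 and 108, 2.78 ± 0.28), and Cpne4 (2.69 ± 0.28). Npsr1, a neuropeptide receptor, rose from 28.6 and 17.6 to 203 and 195 (2.68 ± 0.24), and Ly9, a lymphocyte surface receptor, from 21.7 and 47.0 to 256 and 252 (2.64 ± 0.21). In Lsp1 and Mep1a the mTEC-I level was below 11 units. The lower ones included Mgp, an inhibitor of calcification (184 and 197 against 23.4 and 29.3, -2.47 ± 0.28), Tagln, an actin-binding protein of smooth muscle (119.9 and 162 against 20.4 and 18.9, -2.33 ± 0.28), and Mill1, a class I-like protein (406 and 479 against 114 and 130.0, -1.78 ± 0.16). The single peak with the smallest p lies in intron 4 of Zfp362 (chr4:128460925-128468765) and rose from 33.3 and 29.4 to 382 and 356 (3.20 ± 0.17, adjusted p = 6.8e-27). Sim1, a neural transcription factor chosen after its values were seen, had all 7 of its peaks higher, with 145 and 129 units in mTEC-I against 626 and 627 in mTEC-II (2.12 ± 0.11).

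In the peak lists that the authors deposited for each population, the higher peaks were seldom in the mTEC-I list and the lower peaks often were. The lists were made from the same libraries and are among those merged into the peaks tested, so the overlap is not separate support for the calls. The mTEC-II list held most peaks of either kind, as it did of all peaks tested. By an overlap of 1 base, 1.83% of the peaks higher in mTEC-II were in the mTEC-I list and 78.5% in the mTEC-II list. Of the lower peaks 58.9% were in the mTEC-I list and 85.4% in the mTEC-II list, against 23.4% and 80.2% of all peaks tested. The lists differ in length, at 7036 peaks (mTEC-I) and 23949 (mTEC-II), and the weakest listed peak had 142.7 units in the first and 33.4 in the second, so that absence from the mTEC-I list does not show absence of signal.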

How the data were processed

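Each of the 4 sorted populations has 2 H3K4me2 libraries. The submitters' processing notes name bcl2fastq 2.15.0.4, Picard 1.108 and the mm9 build. Aligner, duplicate handling, peak settings: not given in the sources used here. In the authors' files, the deposited merged table gives the H3K4me2 signal of 29472 peaks in tags per 10000000 tags of the library, per the file headers (HOMER annotatePeaks), and the authors' lists of 1 population each give the signal of their peaks.

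From these values 2 mitochondrial peaks were left out, and peaks and gene sums with at least 10 units in at least 2 libraries were kept. log2(value + 10) was fitted with limma 3.58.1 (R 4.3.3, trended variance) over the 8 libraries, with 1 mean and 1 weight per population (0.373 for mTEC-I and 2.13 for mTEC-II over peaks), 4 residual degrees of freedom and Benjamini-Hochberg adjustment over all features. Such differences understate the change of low peaks. All values were multiples of 0.5 tags within 0.1 tags, so edgeR 4.0.16 and DESeq2 1.42.0 were run on the recovered tags as alternatives. Tested on simulated data, the fit made more false calls than its threshold when few features changed, and slightly more for peaks when many did.

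Named genes were the 12 largest called differences in each direction with a mean of at least 50 units in the higher population and no overlap, up to 4 called members of each list in each direction, and genes named whatever their values. Members, lists and tests were chosen with earlier results of these data known. Lists are described by counts and medians, with no set test. RefSeq sequences were matched by symbol: 356 of 400 microRNA genes and 8305 of 11062 genes with a start-site peak. On both strands 5 motifs were searched in windows from 250 bases before to 50 after the start site: GAAANNGAA, CCTNGCAAC (X box core), CTGATTGG (Y box), TGANTCA (AP-1) and TTTATGG (CDX). Longer forms and other motifs tried earlier are not reported. Some genes are not reported here.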

Additional observations from a re-analysis of the deposited data

Results flagged for a closer look

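The mitochondrial peaks, which enter no comparison, held 0.0083% and 0.2522% of the tags of the mTEC-I libraries and 0.039% and 0.006% of those of the mTEC-II libraries, so mTEC-I replicate 2 carried the most.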

How the results depend on the processing

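No alternative on the same peaks called a peak or gene in the opposite direction. DESeq2 on the recovered tags called 2701 peaks higher and 1004 lower and 516 genes lower; by distance (up to 1 kb, 1 to 20 kb, over 20 kb) it called 405, 1181 and 1115 higher and 449, 352 and 203 lower. Cyclic loess called 1382 peaks over 20 kb higher, 589 up to 1 kb lower and 1119 genes lower. Over 20 kb, a pseudocount of 1 called 291 lower and voom 726. With only peaks within 1 kb, 572 genes were higher and 1107 lower, a share of higher calls of 34.1%. Leaving out 1 library gave 2389 to 4636 peaks higher and 586 to 2374 lower, and 1034 to 1839 genes higher and 479 to 1782 lower. By distance it gave 326 to 628, 1019 to 1902 and 1044 to 2106 higher, and 262 to 1216, 219 to 697 and 105 to 470 lower. Of the Aire stage list 5 to 9 were higher and of basal genes 4 to 13 lower when 1 library was left out. A lone mTEC-I library kept its low weight in these fits and was assumed to vary like the other groups. With peaks within 20 kb 5 Aire stage genes were higher, and within 1 kb 2. Of basal genes 7 were lower with DESeq2 and 6 with peaks within 1 kb. With peaks within 20 kb the differences of Alox5 and Fezf2 reversed, to 0.14 and -0.0371. With a stricter overlap, over at least 50% of the merged peak, 0.194% of higher and 47.5% of lower peaks were in the mTEC-I list, and 75.2% and 77.5% in the mTEC-II list. The share of higher gene calls was 60.05% with voom and 74.0% with DESeq2. Of 142 named genes called, 43 lost the call without mTEC-I replicate 2, 27 without replicate 1 and 28 with DESeq2. The replicate numbers did not pair the libraries (correlations of deviations -0.0227 to 0.012 over 6 pairs of populations); a fit with a replicate block called 4548 peaks higher and 2273 lower, and 1749 and 1608 genes, and ended the call of 1 named gene. The depth of mTEC-I replicate 2 limits what can be read at peaks of a few tags.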

Other observations

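The strongest peak of the authors' deposited mTEC-II list lies at Crebzf (mm9, chr7:97590832-97594998) with a signal of 6625.9, while the deposited merged table gives 274.78 and 266.94 units there in the mTEC-II libraries and 357.5 and 428.88 in the mTEC-I libraries.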
